A study of Mus musculus with 4 samples.

Results

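The mRNAs of the piRNA pathway and of the germ granules were followed in RNA immunoprecipitates (RIP) of LARP7 from mouse testis. They were taken as 32 gene models, chosen by symbol from a list of PIWI proteins, tudor proteins, helicases and other piRNA or germ granule factors, out of 50600 models in the deposited tables. All 32 had a model in every library, 30 had at least 1 count in some library, and 27 had enough counts to be tested. Testes came from C57BL/6 mice of 8 weeks, and the labels name no genotype or treatment, so the antibody alone separates the groups. An antibody to LARP7 gave the 2 LARP7 libraries and a non-specific IgG, the background of RNAs that stick to beads, gave the 2 IgG libraries. LARP7, of the La-related family, is best known for holding 7SK RNA, and the comparison asks which RNAs are more abundant with its antibody than with IgG. Each library is one pull-down from whole testis, a mix of germ and somatic cells, so the cells an RNA came from cannot be told. The samples hold no library of input RNA, so a value with LARP7 can only be set beside IgG.

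piRNAs are small RNAs of the germ line that guide PIWI proteins to transposon transcripts and to other RNAs. Their long precursors are cut on the surface of mitochondria and in cytoplasmic germ granules, where tudor proteins bind methylated arginines of the PIWI proteins and hold the machinery together. In the adult testis the pathway is most active in pachytene spermatocytes and round spermatids, and mice that lack many of these factors are sterile as males.

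None of the 27 members tested was called higher with the LARP7 antibody by edgeR, against 14.5% of all 12234 genes tested. At an unadjusted p under 0.05, 4 members and 2563 of all genes were higher in edgeR. DESeq2 called 1 member higher, against 14% of all genes. limma on TPM called 0 members and only 5 of the 12234 genes higher, so its 0 says little of the members. Those called lower by edgeR were 5, or 18.5% of the members against 9.69% of all genes: Mael, Ybx2, Gtsf1, Boll and Tdrd7, by 2.84- to 4.28-fold. Another 7 members lay above both IgG libraries in both LARP7 libraries without passing the threshold, Btbd18, Henmt1, Exd1 and Piwil2 by the most. So did 32.9% of all genes and 29.4% of protein-coding genes of like count and length, and by library totals no member did. Piwil1 overlapped between the groups on the TMM scale described below (log2 fold change 0.02 with an SE of 0.45). Library totals put it lower with LARP7 (-1.39, edgeR adjusted p = 0.0217), where 47.1% of all genes were called lower.

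Libraries held 4411271 to 6994514 expected counts, of fragments selected at 15 to 300 nt. Protein-coding genes took 14.9% and 20.4% of the counts in the LARP7 libraries and 42.3% and 38.3% in the IgG libraries. Folds therefore depend on the scale. The scale used below is TMM, which assumes that most genes do not differ (factors 0.558 and 0.673 for LARP7, 1.85 and 1.44 for IgG); scaling by library totals moves the median gene of the 12234 tested from a log2 fold change of -0.05 to -1.47. CPM, the count relative to library size, is on the TMM scale unless said otherwise. Replicates differed by more than counting error (a chi-square of counts, divided by its degrees of freedom, came to 124 for LARP7 and to 53.4 for IgG). Whether they are separate animals is not in the labels, so a p-value measures the spread of these libraries only, and that may be technical. None of the markers of testis cell types looked at was at 0 in all libraries.

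Together the 32 members took 0.0304% and 0.0343% of all counts in the LARP7 libraries and 0.146% and 0.1% in the IgG libraries. Both LARP7 values lay below both IgG values, with means of 0.0323% ± 0.00277 and 0.123% ± 0.0325 (SD, n = 2 each; exact two-sided permutation p = 0.333, the smallest that 2 libraries against 2 can give). As a share of protein-coding counts alone the members took 0.203% and 0.168% with LARP7 and 0.345% and 0.262% with IgG (0.186% ± 0.0247 against 0.303% ± 0.0592, SD, n = 2 each; exact two-sided permutation p = 0.333). The groups stayed apart in that share too, although the gap was smaller than over all counts. These sums are led by a few members, with 3115 counts for Tdrd6, 2107 for Ybx2 and 1499 for Piwil1 over the 4 libraries.

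Levels per length give another order. TPM, the deposited unit that divides by effective length, put Ybx2 first in the IgG libraries at 14.84 and 7.46, then Mael at 7.35 and 2.89, Gtsf1 at 5.14 and 2.47 and Tdrd6 at 4.6 and 1.72. Tdrd7, Ddx4 and Piwil1 followed at 3.77 and 0.97, 3.67 and 1.39, and 2.49 and 1.33. The first 4 came in the same order in both IgG libraries, but below Ybx2 the replicates of a gene lay further apart than neighbours in the order. With the LARP7 antibody every member was at 0.55 TPM or less. Ybx2 (0.31 and 0.55), Piwil2 (0.19 and 0.52) and Piwil1 (0.22 and 0.41) had the highest group means there. A lower TPM with LARP7 was not particular to the members. In limma on TPM 11424 of all 12234 genes tested had a negative log2 fold change, as had 6013 of 6189 protein-coding genes of like count and length.

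**Figure D1:**
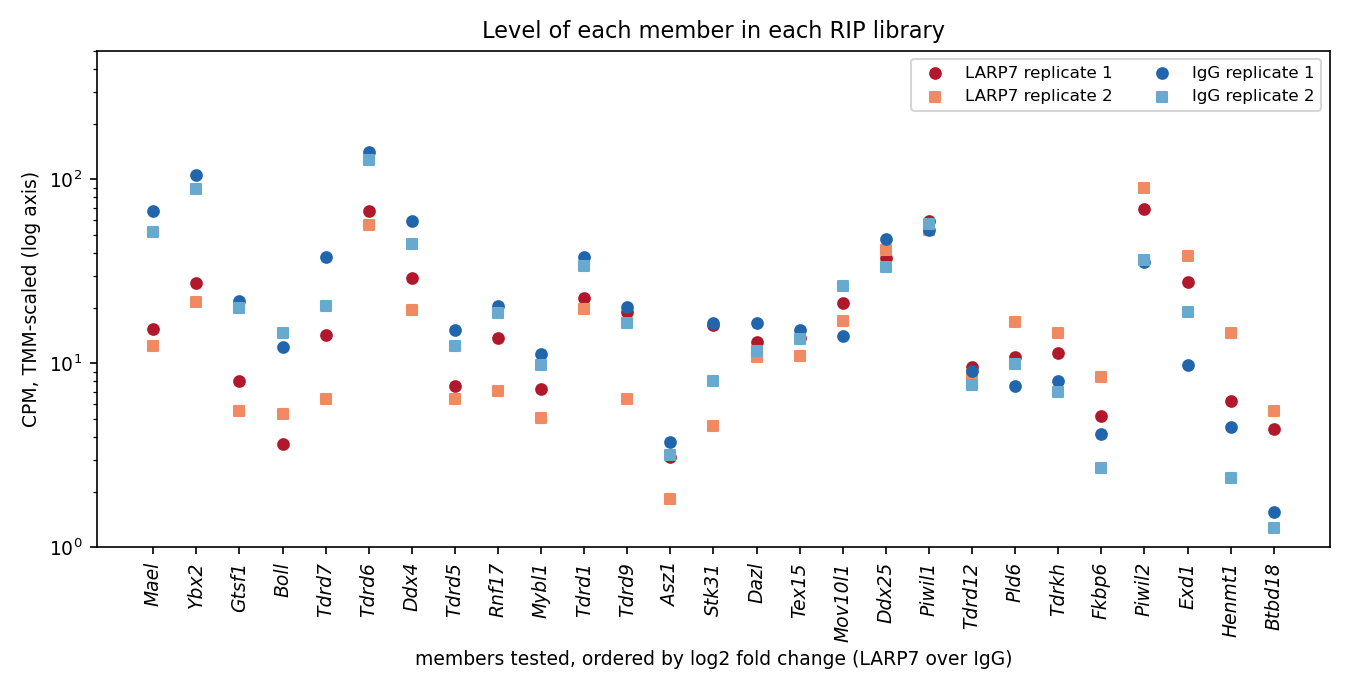
TMM-scaled CPM (log axis) of each of the 27 members tested in the 4 libraries, with members ordered by log2 fold change from the lowest on the left. Mael, Ybx2, Gtsf1, Boll and Tdrd7 lie below both IgG libraries in both LARP7 libraries, the 4 points of Piwil1 lie between 52.8 and 59.2 CPM, and Btbd18 lies at 4.42 and 5.51 CPM with LARP7 against 1.56 and 1.27.

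The PIWI proteins are the endonucleases that carry piRNAs. Gene coordinates here and below are RefSeq's on GRCm38.p6, the assembly behind build mm10. Piwil1 (MIWI, ENSMUSG00000029423.10, chromosome 5, 128736071 to 128755474), the PIWI protein of late meiosis and round spermatids, had 59.2 and 52.8 CPM in LARP7 replicates 1 and 2 and 53.2 and 57 in IgG replicates 1 and 2. Its groups overlapped (log2 fold change 0.02 with an SE of 0.45, edgeR adjusted p = 0.973). Piwil2 (MILI, ENSMUSG00000033644.4, chromosome 14, 70372477 to 70436898), which acts from fetal germ cells onward, had 68.9 and 90.2 CPM with LARP7 and 35.4 and 36.7 with IgG. Both LARP7 libraries were higher, by 2.21-fold (log2 fold change 1.14, SE 0.46), without passing the threshold (edgeR adjusted p = 0.0907). DESeq2 called it (1.21, adjusted p = 0.0457), and library totals turned its sign (-0.26, adjusted p = 0.705) and that of Piwil1 (-1.39, edgeR adjusted p = 0.0217). Whether the 2 PIWI mRNAs differ from each other was not tested. Piwil4 (MIWI2), the nuclear PIWI protein of fetal prospermatogonia, had 0 counts in all 4 libraries, which allows up to 0.429 to 0.68 CPM by library totals in each (3 counts, counting error only).

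The tudor proteins form the scaffold that docks PIWI proteins. Of 9 tested, 1 was lower and none higher in edgeR, beside 9.69% and 14.5% of all genes. Their log2 fold changes centred on a median of -0.76 and ranged over -1.51 to 0.80. Tdrd7 (chromosome 4, 45965027 to 46034766), needed for the chromatoid body of round spermatids, was the one lower: 14.3 and 6.43 CPM with LARP7 against 38 and 20.4 with IgG. Both LARP7 libraries lay below both IgG libraries, but the replicates of each group differed by more than the nearest libraries of the 2 groups (2.84-fold lower, log2 fold change -1.51 with an SE of 0.49, edgeR adjusted p = 0.0482). Tdrd7 missed the threshold when LARP7 replicate 2 (-1.04, adjusted p = 0.258) or IgG replicate 1 (-0.97, adjusted p = 0.27) was left out, and in DESeq2 (-1.45, adjusted p = 0.0759).

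Tdrd6, the large chromatoid body tudor protein and the member with the most counts, had 67.3 and 56.2 CPM with LARP7 and 141 and 127 with IgG. The groups were apart by more than their spread (61.8 ± 7.83 against 134 ± 10 CPM, SD, n = 2 each), yet the value missed the threshold (log2 fold change -1.12 with an SE of 0.50, edgeR adjusted p = 0.121). Tdrd1, a partner of MILI, had 22.6 and 19.7 CPM against 37.7 and 33.9 (-0.76, edgeR adjusted p = 0.171). Tdrd5 had 7.54 and 6.43 CPM against 15.2 and 12.5, and Rnf17 (TDRD4) 13.8 and 7.11 against 20.4 and 18.7. None of these 4 overlapped between the groups, and all were lower with LARP7, as were 35.6% of all genes.

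In 3 further tudor genes the groups overlapped, and in 2 of them one LARP7 library was low. Tdrd9, which also has a helicase domain, had 19 and 6.43 CPM with LARP7 against 20.2 and 16.6 with IgG. Stk31, a tudor protein with a kinase-like domain, had 16.1 and 4.59 CPM against 16.5 and 8.07. LARP7 replicate 2 was the lowest library for both, and without it their log2 fold changes went from -0.55 and -0.27 to 0.04 and 0.38. Tdrd12 had 9.61 and 8.72 CPM against 9.14 and 7.59 (log2 fold change 0.13, edgeR adjusted p = 0.849).

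Tdrkh, the mitochondrial tudor protein that brings PIWI proteins to piRNA trimming, was the tudor gene with the highest value. It had 11.4 and 14.7 CPM with LARP7 and 8.05 and 6.96 with IgG, with no overlap (log2 fold change 0.80 with an SE of 0.42, edgeR adjusted p = 0.186). In the RefSeq table its locus (chromosome 3, 94413243 to 94434854) overlaps Oaz3 (94433387 to 94436651), a spermatid antizyme gene with 117 and 110 counts with LARP7 and 1400 and 685 with IgG (log2 fold change -1.97, edgeR adjusted p = 0.0183). Whether counting used strand is not given in the sources used here, so reads of the shared stretch may be assigned to either gene.

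The helicases unwind piRNA precursors or mRNAs. Of 3 tested in edgeR, none was called in either direction, where 9.69% of all genes were lower and 14.5% higher. Ddx4 (the mouse VASA homolog, chromosome 13, 112598333 to 112652633), the hallmark protein of germ granules, had 29.1 and 19.5 CPM with LARP7 and 59.7 and 44.6 with IgG. Both LARP7 libraries were lower, by 2.15-fold (log2 fold change -1.10 with an SE of 0.45, edgeR adjusted p = 0.0921). Ddx25 (GRTH), which exports and stores mRNAs in spermatids, had 37.4 and 41.3 CPM against 47.3 and 33.4, and overlapped (log2 fold change -0.04, edgeR adjusted p = 0.959). Mov10l1, the helicase that feeds precursors to the cutting enzyme, had 21.3 and 17 CPM against 14.1 and 26.4 (-0.08, edgeR adjusted p = 0.91). Its IgG libraries enclosed both LARP7 libraries.

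Enzymes and cofactors of piRNA making went furthest apart, from the lowest member of all to 2 of the highest. Of 8 tested, 2 were lower and none higher in edgeR, beside 9.69% and 14.5% of all genes. Their log2 fold changes centred on a median of 0.23 and ranged over -2.10 to 1.57. Mael (maelstrom, ENSMUSG00000040629.8, chromosome 1, 166201385 to 166238744), a germ granule protein needed for transposon silencing, had 15.3 and 12.4 CPM with LARP7 and 67.1 and 51.6 with IgG. The libraries of each group lay closer to each other than to the other group (4.28-fold lower, log2 fold change -2.10 with an SE of 0.44, edgeR adjusted p = 0.0117). Gtsf1 (chromosome 15, 103402458 to 103430445), a small zinc finger protein that aids target cleavage by PIWI proteins, had 8.05 and 5.51 CPM against 21.8 and 19.9. It was 3.08-fold lower with LARP7 (log2 fold change -1.62 with an SE of 0.42, edgeR adjusted p = 0.0228). Leaving out LARP7 replicate 2 ended the calls of Mael (-1.95, adjusted p = 0.0707) and Gtsf1 (-1.37, adjusted p = 0.126), as IgG replicate 1 did for Gtsf1 (-1.54, adjusted p = 0.0658).

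At the other end, Henmt1 (chromosome 3, 108939454 to 108979885), the methyltransferase that protects piRNA 3' ends, had 6.24 and 14.7 CPM with LARP7 and 4.53 and 2.37 with IgG (log2 fold change 1.57 with an SE of 0.57, edgeR adjusted p = 0.0642). Both LARP7 libraries were above both IgG libraries, with a wide gap between the LARP7 replicates. Its locus overlaps Fam102b in the RefSeq table. Leaving out IgG replicate 1 took it past the threshold (2.14, adjusted p = 0.031). Exd1 (chromosome 2, 119516505 to 119547627), an RNA-binding partner of TDRD12, had 107 and 167 counts with LARP7 and 126 and 121 with IgG, or 33.1 ± 7.44 against 14.5 ± 6.58 CPM (SD, n = 2 each), without overlap in CPM (log2 fold change 1.2 with an SE of 0.44, edgeR adjusted p = 0.0676). Leaving out IgG replicate 2 did the same for Exd1 (1.76, adjusted p = 0.0464). Library totals gave 0.16 for Henmt1 and -0.14 for Exd1, so the size of both differences, and the sign for Exd1, depend on the scale.

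The other enzymes and cofactors held values nearer to each other. Pld6 (zucchini), the mitochondrial nuclease of precursor cutting, had 10.9 and 16.8 CPM with LARP7 and 7.5 and 9.97 with IgG (log2 fold change 0.67, edgeR adjusted p = 0.277). Fkbp6, a co-chaperone of PIWI loading, had 5.2 and 8.49 CPM against 4.14 and 2.69 (0.98, edgeR adjusted p = 0.196). Neither overlapped, and both turned negative with library totals (-0.70 and -0.43). Asz1 (GASZ), a mitochondrial scaffold, had 3.12 and 1.84 CPM against 3.75 and 3.16, and Tex15, a factor of transposon silencing, 13.8 and 11 against 15.2 and 13.6. Their log2 fold changes were -0.49 and -0.22 (edgeR adjusted p = 0.591 and 0.712).

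A pair of transcription factors switch on piRNA genes in meiosis. Mybl1 (A-MYB), which drives pachytene piRNA precursors together with genes of the machinery, had 7.28 and 5.05 CPM with LARP7 and 11.3 and 9.81 with IgG, without overlap (log2 fold change -0.78, edgeR adjusted p = 0.218). Btbd18, a nuclear factor of pachytene piRNA transcription, had the highest fold change of all members on the fewest counts of those tested, 69. It had 4.42 and 5.51 CPM against 1.56 and 1.27 (3.45-fold, log2 fold change 1.79 with an SE of 0.63, edgeR adjusted p = 0.0591), and 0.37 with library totals.

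Since A-MYB is a member and is known to act at promoters of the machinery, member promoters were searched for its letters. RefSeq (GRCm38.p6) promoters of 300 bases, from 250 before to 50 after the start, were at hand for 25 of the 32 members. The long form AACNGCC, on either strand (GGCNGTT), stood in 8 of these 25 (32%) and in 13.6% of 27025 genes. It overlaps the core AACNG, which stood in 20 of 25 (80%) and in 82.4% of genes, and it was one of 6 overlapping patterns tried. AACGG stood in 11 of 25 (44%, and 19.6% of genes), AACTG in 9 (36%, and 48.2%), CAACNG in 8 (32%, and 38.3%), and AACTGCC or AACGGCC in 3 (12%, and 6.39%). The 8 members with AACNGCC were Piwil1, Mov10l1, Mael, Tdrd1, Tdrd7, Tdrd12, Tdrkh and Pld6. A gene was counted, among members and all genes alike, if any of its promoters matched. Tdrd1 matched only in the last of its 3 promoters and Tdrd7 only in the first. In Pld6 the matches began 8 and 38 bases after the start. The 8 include members called lower (Mael, Tdrd7) and members not called (Piwil1, Tdrd12), and 3 are printed here to show both kinds. The matches to AACNGCC or its reverse are in capitals, the rest in lower case.
Mael, chr1:166238695-166238994, minus strand: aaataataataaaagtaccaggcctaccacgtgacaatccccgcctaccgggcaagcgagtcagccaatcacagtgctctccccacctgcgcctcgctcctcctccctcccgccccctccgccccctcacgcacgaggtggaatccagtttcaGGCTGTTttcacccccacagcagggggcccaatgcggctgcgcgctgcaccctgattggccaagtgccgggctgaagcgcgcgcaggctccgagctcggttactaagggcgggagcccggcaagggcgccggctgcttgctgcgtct
Tdrd7, the first of its 3 promoters, chr4:45965085-45965384, plus strand: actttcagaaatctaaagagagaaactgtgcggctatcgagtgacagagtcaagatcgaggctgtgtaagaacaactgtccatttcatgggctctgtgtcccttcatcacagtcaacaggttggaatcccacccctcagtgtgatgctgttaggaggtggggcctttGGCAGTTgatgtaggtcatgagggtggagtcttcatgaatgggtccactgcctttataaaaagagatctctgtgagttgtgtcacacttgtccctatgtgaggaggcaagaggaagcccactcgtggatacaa
Piwil1, chr5:128735996-128736295, plus strand: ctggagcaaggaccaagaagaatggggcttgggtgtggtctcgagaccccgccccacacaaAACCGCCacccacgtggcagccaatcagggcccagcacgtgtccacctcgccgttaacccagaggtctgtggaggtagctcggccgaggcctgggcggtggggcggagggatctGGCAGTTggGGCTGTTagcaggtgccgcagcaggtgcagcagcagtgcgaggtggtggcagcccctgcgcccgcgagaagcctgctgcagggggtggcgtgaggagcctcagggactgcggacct
Mael has 1 match, Tdrd7 has 1 and Piwil1 has 3. RIP measures RNA in complexes, so these libraries say nothing of use of the matches.

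Germ cell RNA-binding proteins repress or store mRNAs through meiosis and after it. Of 3 tested, 2 were lower and none higher in edgeR, too few to read as a share beside 9.69% and 14.5% of all genes. Ybx2 (MSY2, ENSMUSG00000018554.13, chromosome 11, 69935805 to 69941604), which coats and stores mRNAs of spermatids, had 27.5 and 21.6 CPM with LARP7 and 105 and 88.6 with IgG. It was 3.95-fold lower (log2 fold change -1.98 with an SE of 0.48, edgeR adjusted p = 0.0176). Boll (chromosome 1, 55243566 to 55363789), of the DAZ family, had 3.64 and 5.28 CPM against 12.3 and 14.7, or 3.01-fold lower (log2 fold change -1.59 with an SE of 0.46, edgeR adjusted p = 0.031). Dazl, of the same family and active from spermatogonia to spermatocytes, had 13 and 10.8 CPM against 16.6 and 11.7, and overlapped (-0.26, edgeR adjusted p = 0.671). Ybx2 was not called when LARP7 replicate 1 (-2.17, adjusted p = 0.0514) or the other LARP7 library (-1.81, adjusted p = 0.1) was left out. Boll was not called with LARP7 replicate 1 (-1.35, adjusted p = 0.105), the other LARP7 library (-1.89, adjusted p = 0.0992) or IgG replicate 2 (-1.44, adjusted p = 0.0743) left out, nor in DESeq2 (-1.53, adjusted p = 0.0688).

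The other 5 members had too few counts to test, and most are factors of fetal germ cells or spermatogonia. Nanos2, the RNA-binding factor of male fate and stem cells, had 0 counts in every library, with the same upper limits as Piwil4. Nanos3 had 1 count in each LARP7 library and 5 and 0 with IgG. Dnd1, whose locus overlaps Wdr55 in the RefSeq table, had 4 in each LARP7 library and 0 in both IgG libraries. Pnldc1, the nuclease that trims piRNA 3' ends in the adult testis, had 2 and 9 counts with LARP7 and 8 and 1 with IgG. No fold is given for these at such counts.

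**Figure D2:**
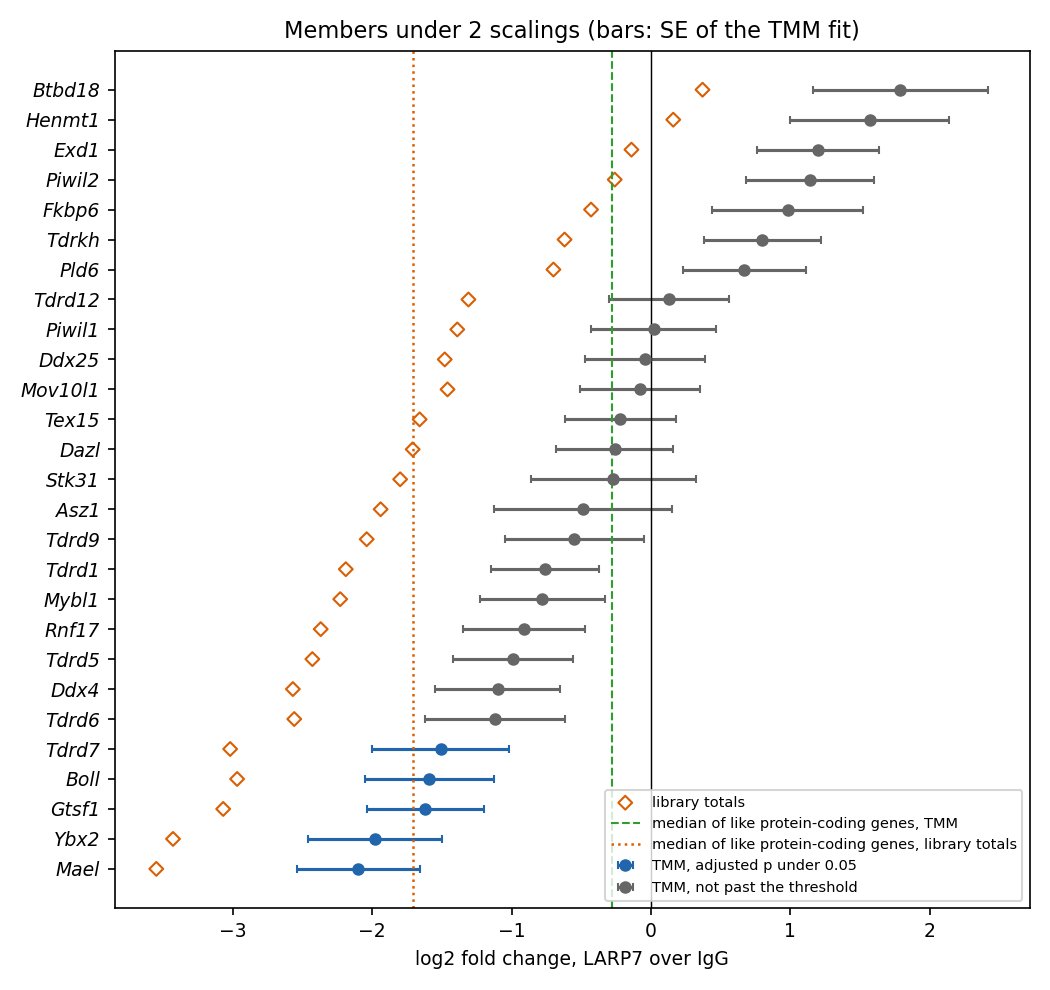
Log2 fold change (LARP7 over IgG) of the 27 members tested, with the TMM value and its SE as filled points and bars, the library-total value as open diamonds, and dashed and dotted lines at the medians of like protein-coding genes (-0.28 and -1.71). The order of members is nearly the same on both scales, while the zero line moves: 9 members lie above 0 with TMM and 2 with library totals.

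Read as a list, the members were set beside the 6189 protein-coding genes within their range of mean log2 CPM (1.69 to 6.51) and model length (754 to 6934 nt). Of these like genes 12.3% were called higher and 13.1% lower. Medians of the log2 fold change were -0.27 for members, -0.28 for like genes and -0.05 for all genes. The medians of members and like genes were less close with 1 library left out. They were -0.86 and -0.40 without LARP7 replicate 1, and -0.11 and -0.19 without LARP7 replicate 2. Without IgG replicate 1 they were -0.35 and -0.15, and without IgG replicate 2 they were -0.59 and -0.29. The members have more counts than the like genes (medians of 460 and 216 over the 4 libraries), and no test was made over the list.

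With library totals 0 members were higher and 20 were lower (74.1%), against 1.91% and 58.2% of the like genes and 3.95% and 47.1% of all genes, with medians of -1.80, -1.71 and -1.47. With protein-coding counts as library size, a scale added after seeing the data, 0 were higher and 5 lower, against 9.82% and 17% of the like genes. The libraries of the groups did not overlap for 7 members above and 12 below IgG with TMM, where 29.4% and 41.8% of the like genes did not (32.9% and 35.6% of all genes). By library totals 0 lay above and 22 below, where 5.8% and 73.4% of the like genes did (9.71% and 63.9% of all genes). Most members and most like genes thus lay below IgG by library totals, and on none of these 3 scales was a member called higher in edgeR with all 4 libraries and antibody as the only term. The 5 members called lower became 3 when LARP7 replicate 1 was left out, 0 for LARP7 replicate 2 and 3 for IgG replicate 1, and the count over all genes fell to 50 without LARP7 replicate 2.

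Single members held different places among the like genes. In percentiles of the like genes' log2 fold changes, Mael stood at 2.92, Ybx2 at 4.01, Gtsf1 at 10.2, Boll at 10.8 and Tdrd7 at 12.7. Piwil1 stood at 58.3, Piwil2 at 82.1, Exd1 at 83, Henmt1 at 88.4 and Btbd18 at 91.1. All 10 lay inside the range that like genes span, with Mael and Ybx2 towards its lower end.

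The lower members had short models. All 5 were among the 10 members under 1861 nt, which had a median log2 fold change of -1.0. Split into 3 equal parts by length, the shortest 2063 like genes had 363 lower, 169 higher and a median of -0.52. The longest 2063, over 3124 nt, had 151 lower, 395 higher and a median of 0.09, and the 12 members in that range had a median of -0.15 with none called by edgeR. Over the 27 members log2 fold change and log2 length correlated at r = 0.244 (Spearman 0.257), and over the like genes at r = 0.21 (0.206). Split by mean log2 CPM instead, the highest part of the like genes had 20.1% lower and 18.3% higher. It held 17 members, 4 of them called lower, and the middle part held 7, with 1 called lower. With mean log2 CPM the correlations were r = -0.334 (-0.276) over members and 0.00716 (-0.025) over like genes. These describe genes of the same 4 libraries, which are not independent, and the part of length or level in the calls was not tested.

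Markers of testis cell types, those of the pathway's own stages included, were read in the same fit. Round spermatid markers summed to 25.1 and 26.7 CPM by library totals with LARP7 and to 192.6 and 163.7 with IgG, and 3 of 6 were called lower (median -1.51 with TMM). Elongating spermatid markers summed to 241.7 and 188.2 against 2049.3 and 1713.4, with 4 of 6 lower (median -1.79). Spermatocyte markers summed to 34.7 and 28.9 against 125.2 and 84.6, with 0 of 6 called in edgeR (median -0.51). Spermatogonial markers summed to 9.6 and 16.5 against 18.9 and 9.3, which overlap, and 2 of 5 were higher (median 1.07). These 2, Sall4 and Zbtb16, were not called with library totals (edgeR adjusted p = 0.104 and 0.233). Of somatic markers, 1 of 4 for Sertoli cells was lower (median -1.04), and none was called of 5 for Leydig cells (median -0.14) or 2 for peritubular, vascular and blood cells (median 0.14). Of all genes, 14.5% were called higher and 9.69% lower. The part of these markers in the members' values was not tested.

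**Figure D3:**
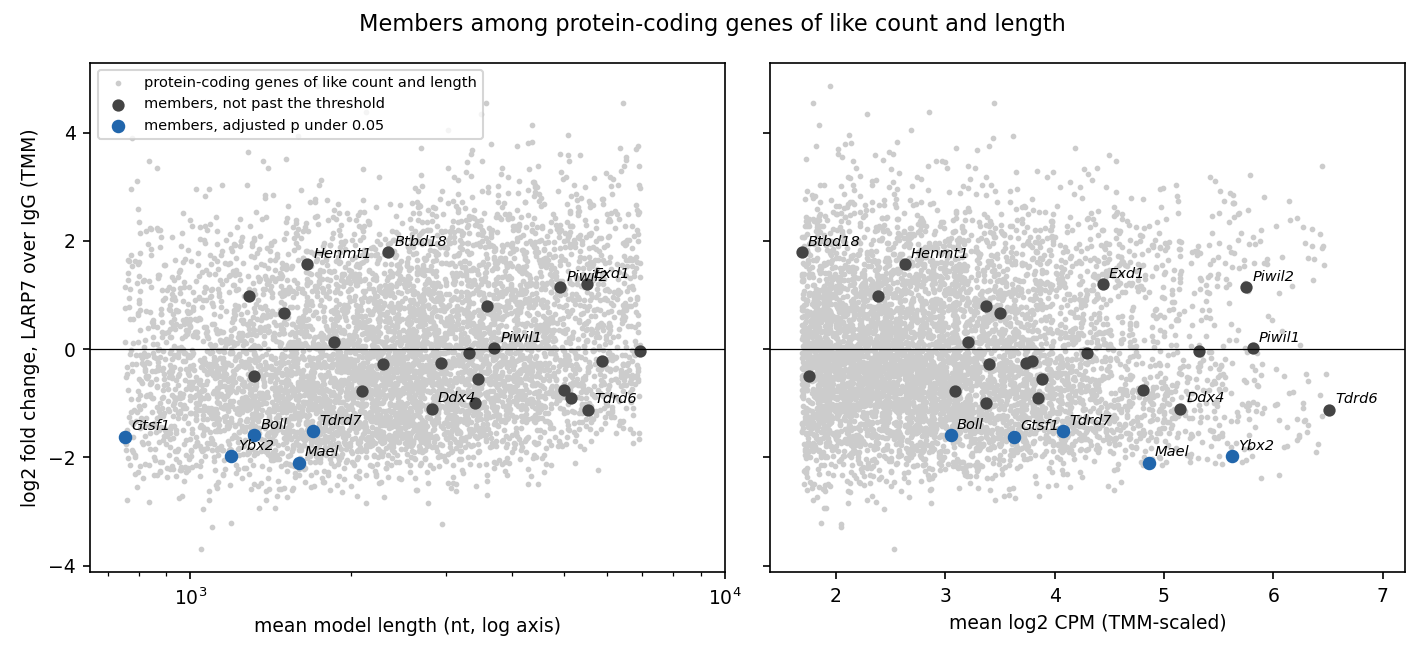
Log2 fold change (LARP7 over IgG, TMM) against mean model length (left, log axis) and mean log2 CPM (right), with 6189 like protein-coding genes in grey, the 5 members called lower in blue and the other 22 members tested in dark grey. The blue points sit at the short end of the length axis and between 3.05 and 5.62 on the level axis, inside the cloud of grey points.

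Partners outside the list were read the same way. Of 31 genes named for small RNA pathways, germ granules and their mRNA partners, 30 had a model and 26 were tested in edgeR: 3 were higher and 1 lower (11.5% and 3.85%, against 14.5% and 9.69% of all genes), with a median log2 fold change of -0.20. Ago2, the Argonaute of microRNAs, had 2370 and 3180 CPM with LARP7 and 396 and 629 with IgG (log2 fold change 2.44 with an SE of 0.71, edgeR adjusted p = 0.0325). Its model of 13705 nt is longer than that of any member. In TPM its groups overlapped, with 2.32 and 6.53 against 4.92 and 4.01. Wdr77, the partner of the methyltransferase PRMT5 that marks PIWI arginines, had 56.4 and 61.7 CPM against 13.4 and 18.8 (1.88, edgeR adjusted p = 0.016). Tsn (translin), an RNA-binding nuclease subunit of germ cells, had 18.4 and 25 CPM against 6.95 and 7.44 (1.60, edgeR adjusted p = 0.0215). In TPM Wdr77 overlapped (0.37 and 1.06 against 1.27 and 0.84) and Tsn was lower with LARP7 (0.05 and 0.1 against 0.49 and 0.16).

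Kif17, the kinesin that visits the chromatoid body, was the gene lower, with 9.35 and 8.26 CPM against 37.5 and 28.2 (log2 fold change -1.90 with an SE of 0.40, edgeR adjusted p = 0.0119). All 4 had groups that did not overlap, where 32.9% of all genes lay above IgG without overlap and 35.6% below. With library totals Ago2 (1.08), Wdr77 (0.50) and Tsn (0.20) kept their sign and were not called (edgeR adjusted p = 0.16, 0.42 and 0.773), and 0 of the 26 were higher and 14 lower. With LARP7 replicate 2 left out the TMM counts were 0 higher and 0 lower, and with IgG replicate 1 left out they were 1 and 1.

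The deposited length of a gene model is weighted by the estimated share of its isoforms, so it can differ between libraries, as it did for 23 of the 27 members. It was longer in both LARP7 libraries than in both IgG libraries for 3 members (11.1%, against 18.3% of like genes) and shorter in both for 4 (14.8%, against 14.3%). Tdrkh had 4930 and 4092 nt with LARP7 and 2146 and 3185 nt with IgG, and Exd1 6042 and 5832 nt against 4895 and 5315. Pld6 went the other way, with 1219 and 1323 nt against 1699 and 1753, as did Tdrd7 with 1596 and 1545 nt against 1770 and 1882. These lengths are estimates from few reads in the members with low counts and were not tested.

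**Figure D4:**
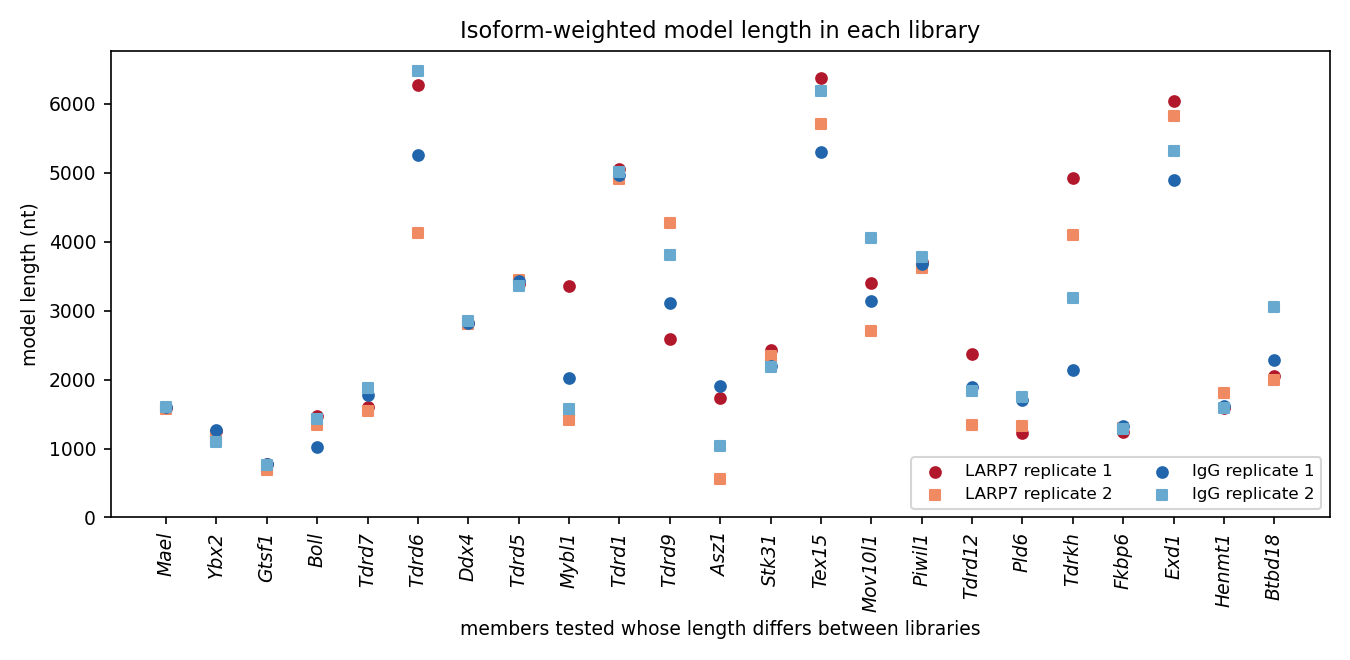
Isoform-weighted model length (nt) in each of the 4 libraries for the 23 members whose length differs between libraries, ordered by log2 fold change. Tdrkh is longer in both LARP7 libraries (4930 and 4092 nt) than in both IgG libraries (2146 and 3185 nt), and most other members overlap between groups.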

How the data were processed

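RNA pulled down with an antibody to LARP7 or with IgG was sequenced from mouse testis, 2 libraries each. The submitters' processing notes list the tools RSEM, Bowtie2 and cutadapt and the build mm10, without versions. The authors deposited, per gene model, an expected count (estimated, with shared reads split between models), a TPM, a posterior SD of the count and a length weighted over isoforms. Expected counts of members were not whole in 14.8% of values and were rounded; the posterior SD was at most 0.0281 of the count in any member tested.

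The test was edgeR 4.0.16 in R 4.3.3 (filterByExpr, TMM, robust quasi-likelihood F test, two-sided, Benjamini-Hochberg over 12234 genes, threshold 0.05), with antibody as the term. SEs are the unshrunk log2 fold change over the square root of F. Alternatives were library totals, no filter, DESeq2 1.42.0, limma 3.58.1 on log2(TPM + 1), a replicate block, each library left out, and protein-coding counts as library size, the last chosen after seeing the data. Limits from a count of 0 cover counting error only, since reads are not counted by molecule. The scripts were tested on simulated data. Biotypes, coordinates and promoters come from RefSeq GRCm38.p6 (35723 of 50600 symbols matched, 70.6%). Like genes are protein-coding genes within the members' range of level and length. Values of each library are given for members tested, and full statistics for members called or most abundant; partners named are those called. Members and lists were chosen with earlier results of these data known.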

Additional observations from a re-analysis of the deposited data

How the results depend on the processing

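Depth and 2 libraries a group limit what could be called: members near 1 CPM rest on few counts. The 5 members lower with TMM kept a negative value under all 10 alternatives, and each lost its call in some. Tdrd1, Tdrd5, Tdrd6, Ddx4, Asz1, Mybl1, Rnf17 and Tex15 also stayed negative under all 10, so the sign is not particular to the 5. With library totals 25 of the 27 members were negative, as were 5327 of 6189 like genes and 9713 of 12234 genes. With limma on TPM 27 members were, beside 6013 of the like genes and 11424 of all genes. With library totals the counts higher and lower were 483 and 5759 over all genes, 0 and 20 for members, 118 and 3601 for like genes and 0 and 14 for partners, and the member median was -1.80. With limma on TPM they were 5 and 19, 0 and 0, 0 and 0, and 0 and 0, where 19 of 27 members, 3855 of 6189 like genes and 6651 of 12234 genes were lower at an unadjusted p under 0.05. DESeq2 gave 729 genes lower, 1 member higher and 3 lower, and 2 partners lower. Without a filter 2 partners were lower, and with protein-coding counts as library size 3. The causes of these changes were not tested.

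Leaving out 1 library gave 353 to 2007 genes higher and 50 to 1022 lower, 0 to 1 members higher and 0 to 4 lower, 137 to 701 like genes higher and 30 to 703 lower, 0 to 2 partners higher and 0 to 2 lower, and member medians of -0.86 to -0.11. The replicate numbers are not said to pair libraries; replicate 1 deviations correlated at r = 0.212 between groups over 12234 genes. With the number as a replicate block 2 members were higher (Piwil2 1.13, edgeR adjusted p = 0.039, and Exd1 1.25, edgeR adjusted p = 0.0211). The block gave 7 members lower, with Tdrd6 (-1.12, edgeR adjusted p = 0.0476) and Ddx4 (-1.11, edgeR adjusted p = 0.0328) added, against 5 without it, and 3 partners lower. Calls rose over all genes too, to 17.1% higher and 11.5% lower from 14.5% and 9.69% without the block. Of like genes 14.4% were higher and 16.7% lower with it.

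Some signs turned, those of the highest members included. With library totals the log2 fold changes were -1.39 for Piwil1, -0.26 for Piwil2, -1.31 for Tdrd12, -0.62 for Tdrkh, -0.70 for Pld6, -0.43 for Fkbp6 and -0.14 for Exd1. With limma on TPM they were -1.12 for Piwil1, -0.52 for Piwil2, -0.50 for Tdrd12, -0.40 for Tdrkh, -0.40 for Pld6, -0.19 for Henmt1, -0.28 for Fkbp6, -0.24 for Exd1 and -0.03 for Btbd18. Protein-coding library sizes gave -0.17 for Piwil1 and -0.09 for Tdrd12, no filter gave -0.06 for Piwil1, and DESeq2 gave 0.03 for Ddx25. With 1 library left out the lowest and highest values were -0.06 and 0.11 for Piwil1, -0.45 and 0.45 for Mov10l1, -1.52 and 0.04 for Tdrd9, -0.25 and 0.25 for Ddx25, -0.46 and 0.03 for Dazl, and -1.43 and 0.38 for Stk31.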
